A study of Mus musculus with 41 samples.

Results

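The 46 genes described here drive the cell cycle and guard its mitotic steps, and they were read in androgenetic haploid mouse embryonic stem cells (AG-haESCs), which carry 1 set of chromosomes of paternal origin. They were chosen by symbol for their known function, with earlier results of these data already known. All 46 symbols were found among the 24028 gene symbols with deposited values. The set holds 8 G1 cyclins and their kinases, 5 CDK inhibitors and members of the Rb and E2F families, 8 cyclins and regulators that act from S phase to mitosis, 5 spindle assembly checkpoint genes, 5 genes that control the anaphase-promoting complex (APC/C) and the start of anaphase, 5 mitotic kinases and chromosomal passenger genes, 5 mitotic motors and cytokinesis genes, 2 chromosome proteins used as marks of proliferation, and 3 genes of replication licensing and the DNA damage checkpoint.

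Cyclins bind and activate cyclin-dependent kinases (CDKs). In most cells D-type cyclins with Cdk4 or Cdk6 phosphorylate Rb and release E2F, which switches on the genes of S phase, and CDK inhibitors hold this step back. Cyclins E and A carry cells through S phase, and Cdk1 with the B-type cyclins starts mitosis. The spindle assembly checkpoint then holds Cdc20, an activator of the APC/C, until every chromosome is attached, after which securin and the B-type cyclins are destroyed. Mouse embryonic stem cells are known for a short G1 phase with little Rb control and low levels of several CDK inhibitors. Haploid cells tend to become diploid in culture when mitosis fails to divide them, and they are kept haploid by sorting.

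RNA-seq values of 13 libraries were used, all from cells of strain C57BL/6 grown on feeder fibroblasts and enriched for haploid DNA content by flow cytometry. The wild-type line 2i-14, kept in 2i/L (serum, LIF, the MEK inhibitor PD0325901 and the GSK3 inhibitor CHIR99021), gave 3 libraries at passages 18, 39 and 50. Wild-type lines of the TSa2i/L regime, derived in serum with the Src inhibitor CGP77675, CHIR99021 and LIF and then held without serum in SF/a2i/L, gave 5 libraries, which were TSa2i-14 at passages 22, 47 and 54 and TSa2i-C57 at passages 9 and 58. Both are labelled wild type, but the study gives TSa2i-14 an actin-EGFP transgene that TSa2i-C57 is not said to carry. From 2i/L there was also 1 library of 2i-O48, in which both H19-DMR and IG-DMR are deleted, and 1 of 2i-O48-TKO, in which the gene H19 is deleted too; the labels give no passage for either. These DMR-deleted lines and 2i-14 gave 1 library each after 5 passages in SF/a2i/L, here called switched. All wild-type 2i/L libraries come from 1 line, so medium and line cannot be told apart. Libraries of the same line differ in passage only, and nothing says that the cells of 1 group came from separate derivations, so p-values measure the spread between these cultures only.

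The authors deposited FPKM, which scales fragments to transcript length and to the mapped total, without counts. The depth implied by the smallest values was 12700000 to 19700000 fragments per library. All 8 embryonic stem cell markers had an FPKM of at least 1 in every library, and none of the 6 primitive endoderm markers did in any library. Of 6 trophoblast markers, 3 to 4 did in each library. Their summed FPKM was 97.0 in 2i-O48, against 9.74 to 45.8 in the other 12 libraries. 3 libraries carried more RNA of a 15-gene fibroblast list than the others. The mean log2(FPKM + 1) of that list was 3.15 in both 2i-14 p39 and TSa2i-14 p54 and 2.13 in TSa2i-C57 p58, against 0.81 to 1.21 in the other 10, where up to 7 of the 15 genes were at 0. The summed FPKM of switched 2i-14 was 2146932, against 651115 to 871848 in the other 12 libraries. In such bulk libraries, fewer cells of a type and less RNA per cell cannot be told apart.

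FPKM is scaled to length, and levels of different genes are set side by side here as a description. The cDNA was amplified, and whether this favoured some genes over others was not tested. Averaged over the 13 libraries, 11 of the 46 members were at or above 100 FPKM and 10 were below 5. The order began with Pttg1, which encodes securin, the inhibitor of the enzyme that cuts cohesin, at 647 ± 306 FPKM (SD, n = 13 libraries), followed by the G1 kinase gene Cdk4 at 628 ± 78.6, the chromosomal passenger gene Birc5 at 552 ± 109, and Gmnn, which encodes geminin, the inhibitor of replication licensing, at 421 ± 70.6. Pttg1, Cdk4 and Birc5 do not differ in this order beyond their spread. The order ended with Cdkn1b at 1.47 ± 0.65, Cdc25b at 1.35 ± 0.37, Rb1 at 1.15 ± 0.43 and Cdkn2a at 1.02 ± 0.60, whose ranges overlap. 3 of these 4 restrain entry into S phase: Cdkn1b and Cdkn2a encode CDK inhibitors, and Rb1 encodes the protein that holds E2F.

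The members had about the same spread over the 13 libraries as all genes, which were lower in level. Their median SD of log2(FPKM + 1) was 0.33, and it was 0.34 over the 10731 genes that reached 1 FPKM in 3 libraries. The median level on that scale was 4.66 for the members and 3.01 for those genes, and genes of like level were not compared. The steadiest were Bub1, a checkpoint kinase, with an SD of 0.16 and a range of 23.5 to 34.8 FPKM, and the proliferation mark Mki67 and the Cdk1 inhibitory kinase Wee1, each with an SD of 0.17. The least steady were Ccnd2 (SD 1.07), Ccnd1 (0.77), Cdc20 (0.76), Cdkn2b (0.72) and Ccnd3 (0.71). Thus all 3 D-type cyclins were among the 5 most variable members, whereas Cdk4, with which they pair, had an SD of 0.18.

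**Figure D1:**
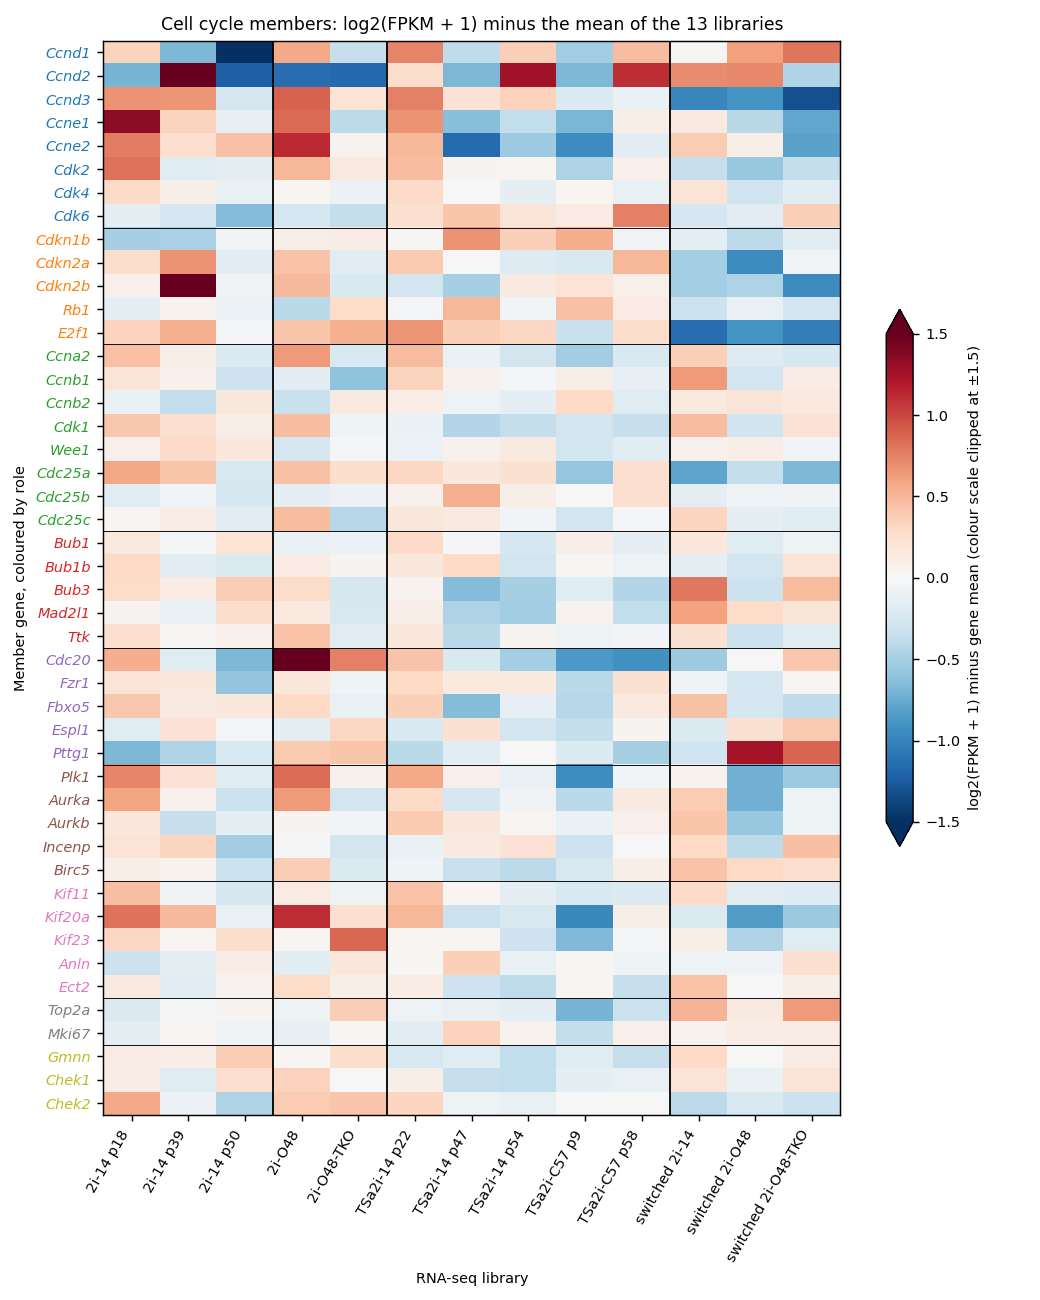
Each row is 1 member gene, coloured and ordered by role, and each column is 1 library; colour gives log2(FPKM + 1) minus the gene's mean over the 13 libraries, clipped at 1.5 either way. Most rows are pale, and the strongest colours belong to the D-type cyclins, Cdkn2b, E2f1 in the switched libraries, Cdc20 in 2i-O48 and Pttg1 in the switched DMR-deleted lines.

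Promoter sequence shows a feature that many mitotic members share and that choice by symbol did not use. RefSeq promoter windows (GRCm38.p6, 250 bases before to 50 after a start) were found for 35 of the 46 members, in 39 windows, and were missing for Aurkb, Ccna2, Ccnd1, Ccnd2, Ccne2, Cdc25c, Gmnn, Incenp, Kif20a, Rb1 and Wee1. 3 motifs were searched on both strands: CCAAT, which NF-Y binds; TTTGAA, the CHR element that the MuvB complex binds; and GCGNGAA, an E2F-type motif. CCAAT was in 27 of the 39 member windows (69.2%) and in 37.4% of all 32851 windows. TTTGAA was in 19 (48.7%) against 17.9%, both together in 17 (43.6%) against 6.95%, and GCGNGAA in 7 (17.9%) against 8.91%. By role, TTTGAA was in all 5 windows (4 genes) of the mitotic motors and cytokinesis genes. It was in 4 of 6 windows (5 genes) of the spindle checkpoint genes, and in none of the 6 (5 genes) of the G1 cyclins and kinases. Ect2 and Bub3 each entered these counts with 2 windows, both with a match. A match is a description of these letters, not a site in use.

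Among the 4 members called in a comparison below, Cdk1 and Ccnd3 had windows that lie before a start, and the 250 bases before each start are shown because these 2 genes differ in the motifs named above. Capitals mark the matches to the 3 motifs in either direction. The Cdk1 stretch (chr10:69352913-69353162, minus strand) holds 3 CCAAT, 2 TTTGAA and 1 GCGNGAA matches. The upstream Ccnd3 start (chr17:47504801-47505050, plus strand) holds none, and the downstream one (chr17:47593217-47593466, plus strand) holds 1 CCAAT. The RefSeq window of E2f1 ended 216 bases inside the gene and is not shown.
Cdk1: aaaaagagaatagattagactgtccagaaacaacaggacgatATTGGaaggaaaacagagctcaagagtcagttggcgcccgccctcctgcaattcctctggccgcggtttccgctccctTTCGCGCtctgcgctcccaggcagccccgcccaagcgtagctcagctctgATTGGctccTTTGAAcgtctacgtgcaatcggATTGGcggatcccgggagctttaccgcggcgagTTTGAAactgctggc
Ccnd3 upstream start: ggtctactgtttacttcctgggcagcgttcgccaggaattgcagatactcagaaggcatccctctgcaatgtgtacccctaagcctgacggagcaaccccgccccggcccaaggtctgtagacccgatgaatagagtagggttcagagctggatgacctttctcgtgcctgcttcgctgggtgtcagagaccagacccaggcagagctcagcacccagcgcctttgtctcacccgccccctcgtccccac
Ccnd3 downstream start: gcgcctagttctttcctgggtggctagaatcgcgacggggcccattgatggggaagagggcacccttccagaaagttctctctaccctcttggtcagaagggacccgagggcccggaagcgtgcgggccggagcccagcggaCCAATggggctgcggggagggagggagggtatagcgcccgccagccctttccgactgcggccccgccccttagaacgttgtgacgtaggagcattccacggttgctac

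The first comparison asked which members differed when the same lines were moved from 2i/L to SF/a2i/L. The 3 switched libraries were set against 2i-14 p50, 2i-O48 and 2i-O48-TKO, with the cell line as a block. By name and deletions 2i-O48-TKO may descend from 2i-O48, so 2 of the 3 pairs may not be independent. limma was run on log2(FPKM + 1) over the 9759 genes that reached 1 FPKM in 3 of the 6 libraries, with Benjamini-Hochberg adjustment at 0.05. The passage at which 2i-14 was moved is not given, and p50 is its library of highest passage. 2 of the 43 members tested fell (4.65%) and none rose. Of all genes 672 were called (6.89%), with 4.66% lower and 2.22% higher. 8 members had an unadjusted p under 0.05 (18.6%, against 26.1% of all genes). Both act at the G1 to S step: E2f1, the transcription factor released from Rb, and Ccnd3, the most abundant D-type cyclin here.

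E2f1 (chr2:154385143-154395628, mm9) was at 5.06 FPKM in 2i-14 p50, 7.14 in 2i-O48 and 7.88 in the line 2i-O48-TKO. After the switch the same lines gave 1.77, 2.29 and 1.99 FPKM. All 3 switched values lay below each of the other 10 libraries, the lowest of which was 3.87 in TSa2i-C57 p9. The switched to unswitched ratio of FPKM was 0.350, 0.320 and 0.252 in the 3 lines, and E2f1 fell by 1.34 ± 0.20 (SE) on the log2 scale (limma adjusted p = 0.0203).

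Ccnd3 (chr17:47642000-47736632, mm9) was at 98.2, 218 and 136 FPKM in the same 3 unswitched libraries and at 59.0, 62.9 and 46.7 FPKM after the switch. As for E2f1, every switched value lay below the lowest of the other 10 libraries, 98.2 in 2i-14 p50. The share of all genes split this way was not counted. The ratios were 0.600, 0.289 and 0.344, and Ccnd3 fell by 1.34 ± 0.24 (SE) on the log2 scale (limma adjusted p = 0.0311). Without the 2i-O48-TKO pair the adjusted p became 0.112 for E2f1 and 0.123 for Ccnd3, and with no filter on low values, which tests 18837 genes, no gene of any kind was called (3206 had an unadjusted p under 0.05). Without the 2i-14 pair, whose switched library has the high summed FPKM, both remained called, and Cdc20, Kif20a and Plk1 were called lower as well. That fit called 5 of 43 members and 1031 of 9959 genes.

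The 2 other D-type cyclins lay higher after the switch, but neither was called in this comparison. Ccnd1 was at 2.43, 18.7 and 9.52 FPKM in the unswitched libraries, in the same order, and at 12.6, 19.5 and 22.3 FPKM after the switch. It was higher in all 3 pairs, by 1.98, 0.05 and 1.15 on the log2 scale, so the 2i-O48 pair hardly differed (limma adjusted p = 0.137). The 2i-14 difference depends on the control, since Ccnd1 was at 15.8 FPKM in 2i-14 p18, above the switched 2i-14 value. Unswitched libraries reached 21.3 FPKM, in TSa2i-14 p22. Ccnd2 was at 0.03, 0.08 and 0.06 FPKM and, after the switch, at 2.91, 2.93 and 0.74. The value in 2i-14 p50 corresponds to about 2.78 fragments. Ccnd2 did not pass the filter and so has no test in this comparison; without the filter its adjusted p was 0.170. Without the 2i-O48-TKO pair it passed the filter only through the switched libraries, where it is high, so its difference there (log2 change 1.90 ± 0.29 SE) is given as a description. No other member was called in that fit, and 311 of 9810 genes were.

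Together the switched libraries had a different make-up of D-type cyclins. Ccnd3 held 83.6% to 97.6% of the summed FPKM of the 3 D-type cyclins in the 10 other libraries, and 79.2%, 73.7% and 66.9% in the 3 switched libraries, in the order above. The sum itself was 100.7 to 236.5 FPKM in the other 10 libraries and 69.8 to 85.3 FPKM after the switch. These shares are a description, since they rest on the values tested above.

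**Figure D2:**
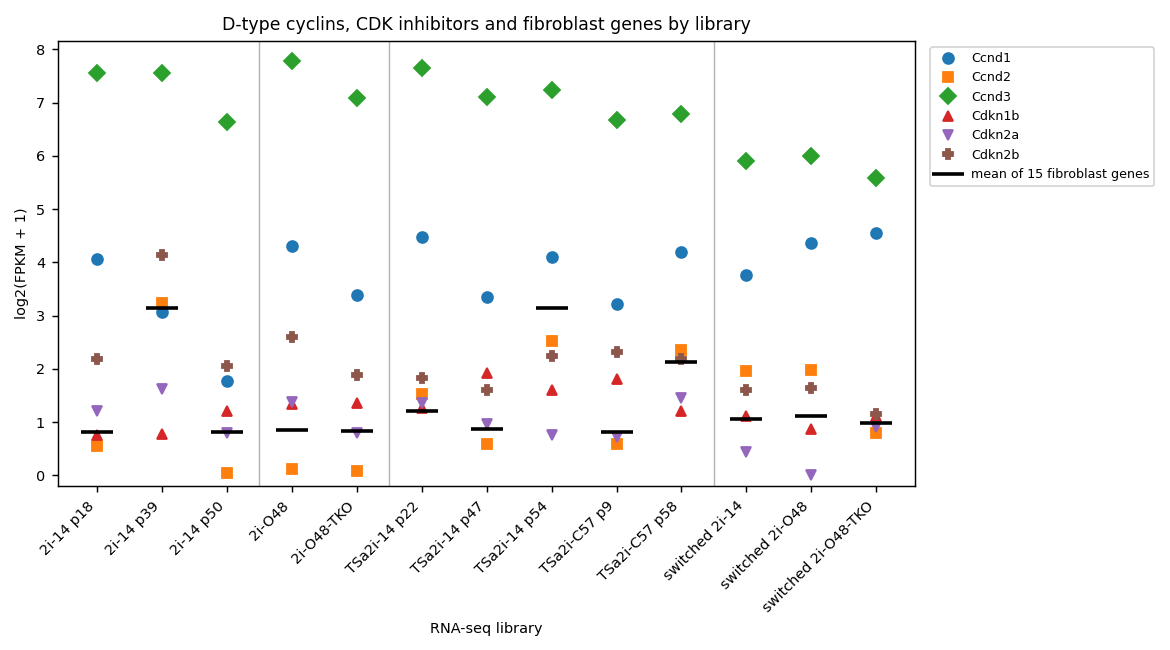
Points give log2(FPKM + 1) of the 3 D-type cyclins and 3 CDK inhibitor genes in each of the 13 libraries, and black bars the mean of 15 fibroblast genes; vertical lines part 2i-14, the DMR-deleted lines, the TSa2i/L lines and the switched libraries. Ccnd3 is highest in every library and lowest in the 3 switched ones, and Ccnd2 is highest in the 3 libraries with the highest fibroblast bars, 2i-14 p39, TSa2i-14 p54 and TSa2i-C57 p58.

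The level of Ccnd2 moved with the fibroblast list outside the switched cells. In 2i-14 it was 0.47 FPKM at p18, 8.45 at p39 and 0.03 at p50, in TSa2i-14 1.88, 0.50 and 4.74 at p22, p47 and p54, and in TSa2i-C57 0.50 and 4.13 at p9 and p58. The 3 fibroblast-rich libraries held its 3 highest values, and the part of fibroblast RNA in them was not tested. In the switched libraries the fibroblast mean was 0.99 to 1.12, with at most 1 of the 15 genes at 0. In their controls it was 0.82 to 0.85, with 4 to 7 at 0. Only 3 of the 15 passed the filter of the switch comparison, and their median log2 change was -0.09. S100a4, among these 3, was at 0, 1.24 and 0.22 FPKM before and 3.64, 17.7 and 3.17 after. S100a4 passed the filter only through the switched libraries, where it is high. Its log2 change of 2.35 ± 0.28 SE is thus given as a description. Of the 8 embryonic stem cell markers, only Nanog, a pluripotency factor, was called after the switch. It fell from 248, 467 and 232 FPKM to 180, 195 and 110 (log2 change -0.93 ± 0.20 SE, limma adjusted p = 0.0483). The median log2 change of the 8 markers was -0.05.

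The 3 CDK inhibitor genes among the members were low in most libraries. Cdkn2b, the gene of the CDK4 and CDK6 inhibitor p15, was at 3.55, 16.5 and 3.18 FPKM in 2i-14 at p18, p39 and p50, and at 2.05 to 3.98 in the 5 TSa2i/L libraries. The high value belongs to the fibroblast-rich 2i-14 p39. Cdkn2b was lower in all 3 switched pairs, at 2.03, 2.14 and 1.24 FPKM after 3.18, 5.06 and 2.67 FPKM before (log2 change -0.71 ± 0.20 SE, limma adjusted p = 0.0863). Cdkn2a, the neighbouring gene on chromosome 4, which gives p16 and p19Arf, was at 1.32, 2.09 and 0.73 FPKM in 2i-14, 1.61 and 0.74 in the DMR-deleted lines and 0.65 to 1.73 in TSa2i/L. After the switch it was at 0.36 FPKM in 2i-14, listed at 0 in 2i-O48 and at 0.89 FPKM in 2i-O48-TKO, and it did not pass the filter of the switch comparison; 3 fragments on it would be 0.139 FPKM in switched 2i-O48. Rb1 ranged from 0.60 to 1.99 FPKM over the 13 libraries and was not tested in the switch either.

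The other members gave no calls after the switch. 6 of the 43 tested were higher in all 3 pairs (19.4% of all genes were) and 10 were lower in all 3 (23.3%, against 29.4% of all genes). The lower ones were Ccnd3, E2f1, Cdkn2b, Cdkn1b, Ccne2, Cdk2, Cdc25a, Kif20a, Kif23 and Gmnn, and the higher ones Ccnd1, Cdk6, Cdc25b, Mad2l1, Top2a and Mki67. Cdc25a, the phosphatase that activates Cdk2, came nearest to a call (log2 change -0.76 ± 0.20 SE, limma adjusted p = 0.0797), with 6.12, 10.4 and 9.11 FPKM before and 3.85, 5.56 and 4.29 after. Top2a, the topoisomerase that untangles chromosomes, was at 24.5, 22.6 and 31.0 FPKM before and 34.5, 26.2 and 37.5 after, and Mki67, the gene of the Ki-67 antigen, at 3.80, 3.58 and 4.06 before and 4.18, 4.39 and 4.40 after. The differences of both were small and did not pass the test. The median log2 change of the tested members was -0.04, beside -0.09 over all genes. Centring each library on its median turned these to 0.13 and 0.07, and the share of all called genes that were higher went from 32.3% to 55.1%, while E2f1 and Ccnd3 stayed lower.

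**Figure D3:**
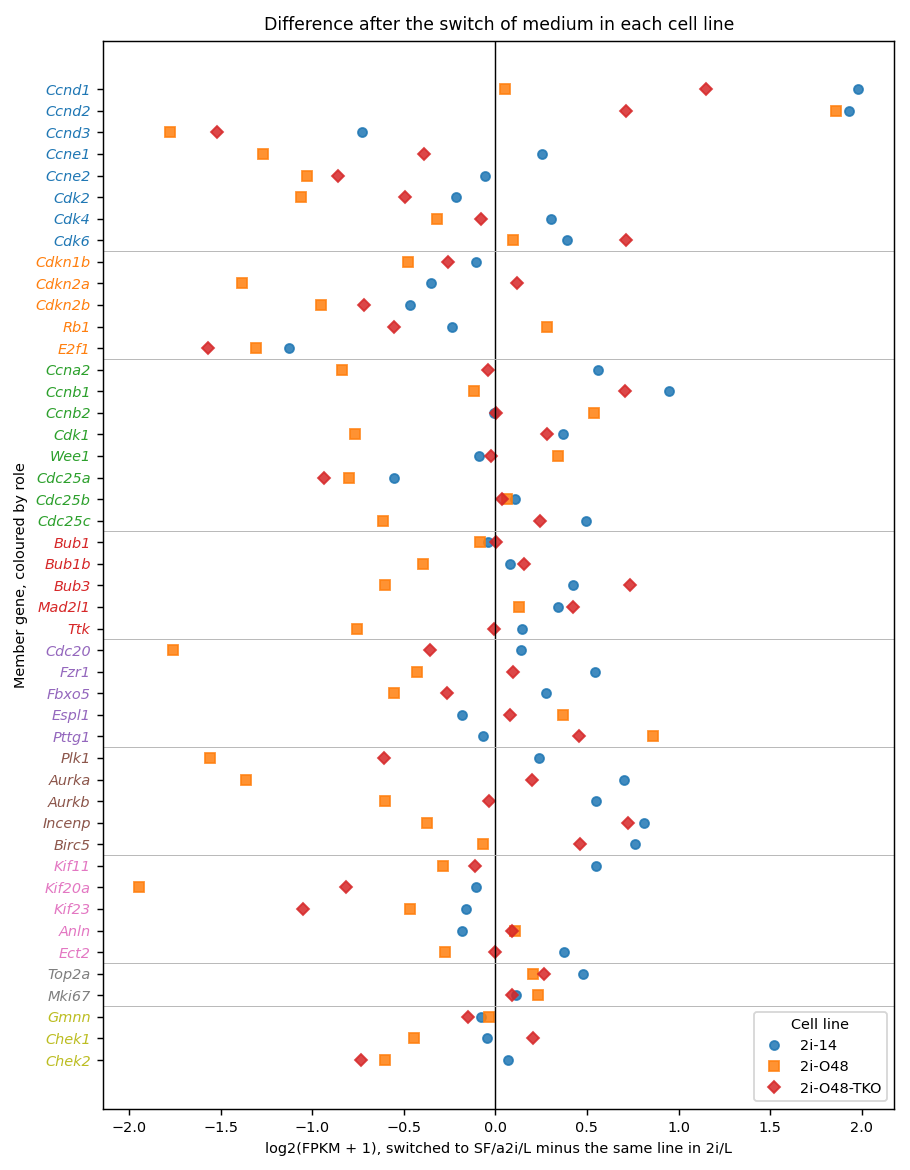
Each symbol gives, for 1 cell line, log2(FPKM + 1) after the switch minus the value of that line in 2i/L, for all 46 members by role. E2f1 and Ccnd3 lie left of 0 in all 3 lines, Ccnd1 and Ccnd2 right of 0, and for most mitotic genes 2i-14 (circles) lies right of 2i-O48 (squares).

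The 3 pairs did not move alike. For 15 of the 43 members (34.9%) the 2i-14 pair went one way and both DMR-deleted pairs the other, where 19.8% of all genes did. This count takes the sign alone, however small the difference, and was not repeated with median centring. For Ccnb2, which it includes, the log2 differences were -0.006 in 2i-14, 0.54 in 2i-O48 and 0.002 in the line 2i-O48-TKO. Plk1, the kinase that drives mitotic entry, was at 22.3 FPKM before and 26.5 after in 2i-14, at 46.4 and 15.1 in 2i-O48, and at 26.6 and 17.2 in the line 2i-O48-TKO. Aurka, the spindle pole kinase, is not among the 15. It was at 107 and 175 FPKM in 2i-14, 210 and 81.2 in 2i-O48, and 111 and 127 in the line 2i-O48-TKO. The 2i-O48 pair thus showed the lowest ratio for these mitotic kinases, and 2i-O48 before the switch was among the highest libraries for both. In a test of whether the switch effect differed between wild-type and DMR-deleted cells, 0 of 43 members were called by limma (0.0307% of all genes were), and 7 had an unadjusted p under 0.05 (16.3%, against 6.52%). With median centring none of the 43 did, and 471 genes did. As deposited, the change was the more positive one in DMR-deleted cells for 7 of the 43 (16.3%, against 39.6% of all genes), and with centring for 12. That test has 1 residual degree of freedom before moderation, so the absence of calls says little.

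Without the 2i-O48 pair, the members called in the switch were E2f1 and Ccnd3 lower and Ccnd1, Ccnb1 and Birc5 higher. These are 5 of 43 members, in a fit that called 1461 of 9888 genes. Ccnb1, the main mitotic cyclin, was at 65.7, 72.4 and 53.4 FPKM before the switch in 2i-14 p50 and the 2 deleted lines and at 128, 66.8 and 88.0 after the switch. Its change over all 3 pairs was 0.52 on the log2 scale and did not pass the test. Birc5, which encodes survivin, was at 431, 699 and 466 FPKM before and 731, 668 and 643 after. For both, the 2i-O48 pair was the one that did not go up.

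The second comparison set the wild-type lines in TSa2i/L (5 libraries) against 2i-14 in 2i/L (3 libraries), over 10387 genes. 2i-14 p50 is also a control of the switch comparison, and all 3 libraries of 2i-14 are the controls of the DMR deletion comparison given later. 2 of the 46 members fell in TSa2i/L (4.35%) and none rose. Of all genes 786 were called (7.57%), with 1.85% lower and 5.72% higher. 6 members had an unadjusted p under 0.05 (23.1% of all genes did). The members called were Cdk1, the kinase that starts mitosis, and Gmnn.

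Cdk1 (chr10:68799383-68815686, mm9) was at 130, 117 and 105 FPKM in 2i-14 at p18, p39 and p50. In TSa2i/L it was at 91.7, 72.4 and 76.8 FPKM in TSa2i-14 and at 81.5 and 77.3 FPKM in TSa2i-C57. No TSa2i/L value reached the lowest 2i-14 value, with 118 ± 12.5 (SD, n = 3) against 79.9 ± 7.32 (SD, n = 5) FPKM. Cdk1 fell by 0.55 ± 0.14 (SE) on the log2 scale (limma adjusted p = 0.0382). In the DMR-deleted lines it was at 136 and 94.4 FPKM, and after the switch at 136, 79.7 and 115 FPKM, so the switched cells overlapped both groups.

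Gmnn (chr13:24843714-24853792, mm9) was at 454, 445 and 538 FPKM in 2i-14 and, in TSa2i/L, at 350, 367, 322, 367 and 327 FPKM. The groups did not overlap, with 479 ± 51.4 (SD, n = 3) against 347 ± 21.2 (SD, n = 5) FPKM, and Gmnn fell by 0.46 ± 0.12 (SE) on the log2 scale (limma adjusted p = 0.0380). The DMR-deleted lines were at 424 and 501 FPKM and the 3 switched libraries at 509, 414 and 451 FPKM, all above the TSa2i/L values. Both calls were close to the threshold. Both were lost when any of the 3 libraries of 2i-14, or TSa2i-14 p47, TSa2i-14 p54 or TSa2i-C57 p58, was left out, and Cdk1 alone was lost without TSa2i-C57 p9. They were also lost without the intensity trend, without the 3 fibroblast-rich libraries (adjusted p 0.333 for Cdk1 and 0.291 for Gmnn) and with TSa2i-14 alone, while the log2 changes stayed between -0.67 and -0.47 for Cdk1 and between -0.58 and -0.37 for Gmnn over the 18 alternatives.

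Of the other members, 4 more did not overlap between the media. Over all genes 11.8% lay wholly higher and 4.72% wholly lower in TSa2i/L, and of the 46 members 2 lay higher and 4, Cdk1 and Gmnn included, lower. Bub3, a component of the spindle checkpoint, was at 164, 146 and 175 FPKM in 2i-14 and at 141, 85.8, 95.4, 119 and 99.7 in TSa2i/L (log2 change -0.59 ± 0.17 SE, limma adjusted p = 0.0616). Kif23, a central spindle motor, was at 14.7, 12.0 and 14.2 FPKM in 2i-14 and at 11.9, 12.0, 9.20, 7.01 and 11.5 in TSa2i/L, where the nearest values of the groups are 11.99 and 11.97. Its margin was thus far smaller than the spread of either group.

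The 2 that lay higher in TSa2i/L were low in level. Cdk6, which pairs with D-type cyclins, was at 3.04, 2.74 and 1.85 FPKM in 2i-14 and at 4.26, 4.97, 4.12, 3.86 and 6.53 in TSa2i/L (log2 change 0.70 ± 0.20 SE, limma adjusted p = 0.0645). Cdc25b, a phosphatase that activates Cdk1, was at 1.09, 1.27 and 0.95 FPKM and at 1.44, 2.36, 1.47, 1.33 and 1.76. Cdkn1b, the gene of the inhibitor p27, was at 0.69, 0.71 and 1.33 FPKM in 2i-14 and at 1.42, 2.81, 2.06, 2.51 and 1.32 in TSa2i/L, so the groups touch (log2 change 0.65 ± 0.22 SE, limma adjusted p = 0.0935). It was at 1.54 and 1.58 FPKM in the DMR-deleted lines and at 1.17, 0.82 and 1.16 after the switch.

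**Figure D4:**
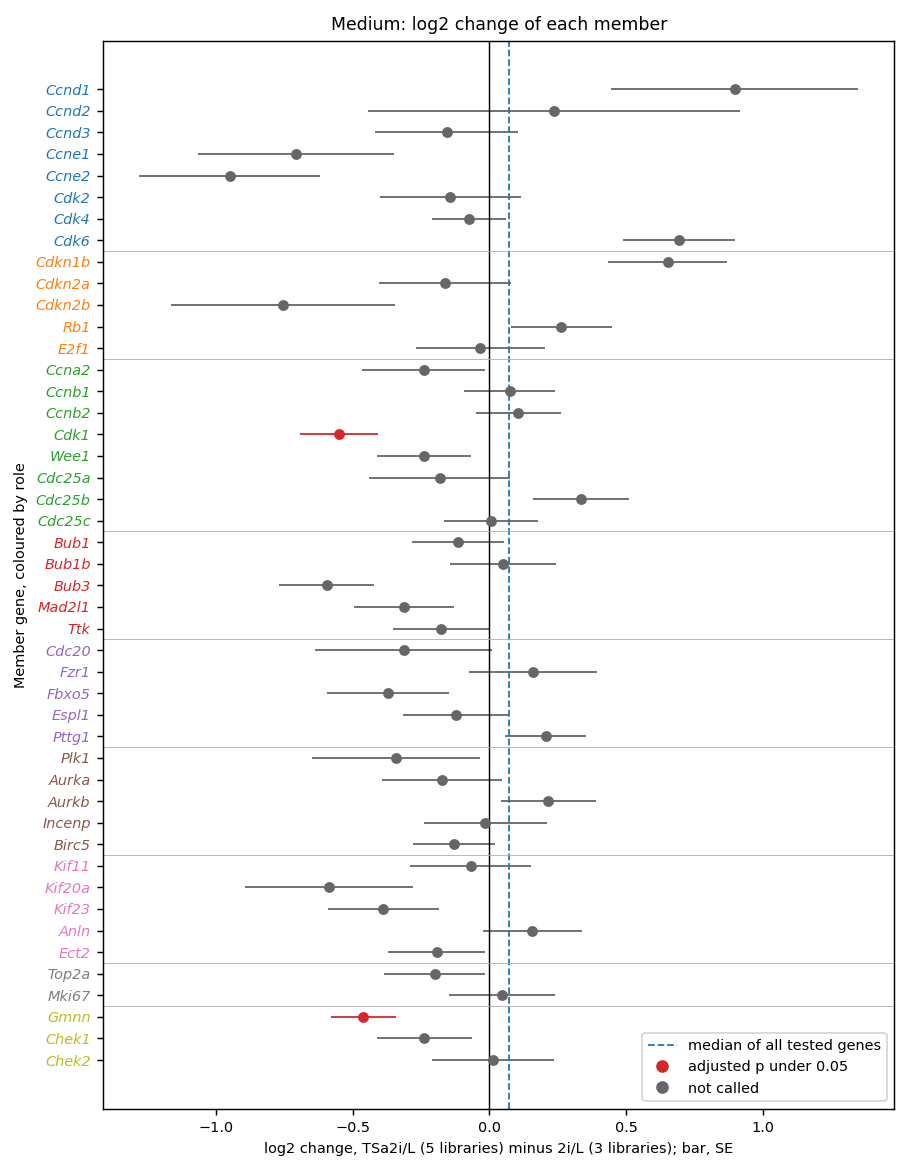
Points give the log2 change of each member between TSa2i/L (5 libraries) and 2i-14 in 2i/L (3 libraries), bars the SE from limma, and the dashed line the median of all tested genes. Cdk1 and Gmnn (red) are the members called, and Ccnd1, with the change farthest to the right, has one of the widest bars.

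By role, the median log2 change with medium was below 0 in all 9 groups, from -0.24 for the licensing and damage checkpoint genes to -0.03 for the CDK inhibitors, Rb and E2F. 30 of the 46 members were below 0 and 16 above (34.8%, against 58.1% of all genes above 0). The median over the members was -0.14, and over all genes 0.07. The median over the members was -0.01 without 2i-14 p18, -0.08 without 2i-14 p39, -0.22 without 2i-14 p50, -0.21 without TSa2i-14 p22, -0.09 without TSa2i-14 p54, -0.07 without TSa2i-C57 p9, -0.05 without the 3 fibroblast-rich libraries and -0.03 with TSa2i-14 alone; centring each library on its median moved both down by 0.12, and the share of all called genes that were higher from 75.6% to 56.2%. Bub3 had the widest spread over the 13 libraries of the 5 spindle checkpoint members, with an SD of log2(FPKM + 1) of 0.43. Mad2l1, the checkpoint protein that binds Cdc20, was at 131, 119 and 153 FPKM in 2i-14 and 136, 92.0, 88.0, 132 and 98.0 in TSa2i/L, and Bub1b, which encodes BubR1, at 18.4, 13.1 and 12.7 FPKM and 16.6, 18.4, 12.1, 15.0 and 13.97. Neither Mad2l1 nor Bub1b passed the test. Aurkb, the kinase of the chromosomal passenger complex, was at 41.2, 28.6 and 33.1 FPKM in 2i-14 and at 48.4, 40.8, 37.4, 34.0 and 38.5 in TSa2i/L, with overlap. Ccnb1 overlapped too, at 94.4, 86.4 and 65.7 FPKM against 103, 85.6, 79.7, 87.4 and 74.8, as did Mki67 at 3.55, 4.08 and 3.80 against 3.48, 5.35, 4.17, 2.90 and 4.25, and Top2a at 20.3, 23.3 and 24.5 against 22.5, 21.9, 21.7, 14.3 and 18.8.

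The G1 cyclins overlapped between the media. Ccnd1 was at 15.8, 7.40 and 2.43 FPKM in 2i-14 and at 21.3, 9.26, 16.2, 8.33 and 17.4 in TSa2i/L, with a log2 change of 0.90 that missed the test. Ccnd3 was at 188, 187 and 98.2 FPKM in 2i-14 and at 200, 137, 149, 102 and 110 in TSa2i/L, so the lower level of the switched cells was not seen in lines derived in TSa2i/L. E2f1 showed the same picture, at 6.75, 7.86 and 5.06 FPKM in 2i-14 and 8.67, 6.83, 6.62, 3.87 and 6.36 in TSa2i/L, where the log2 change was -0.03. Ccne2, a cyclin of the G1 to S step, ranged from 22.2 to 32.2 FPKM in 2i-14 and from 7.74 to 26.5 in TSa2i/L (log2 change -0.95 ± 0.33 SE, limma adjusted p = 0.109).

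**Figure D5:**
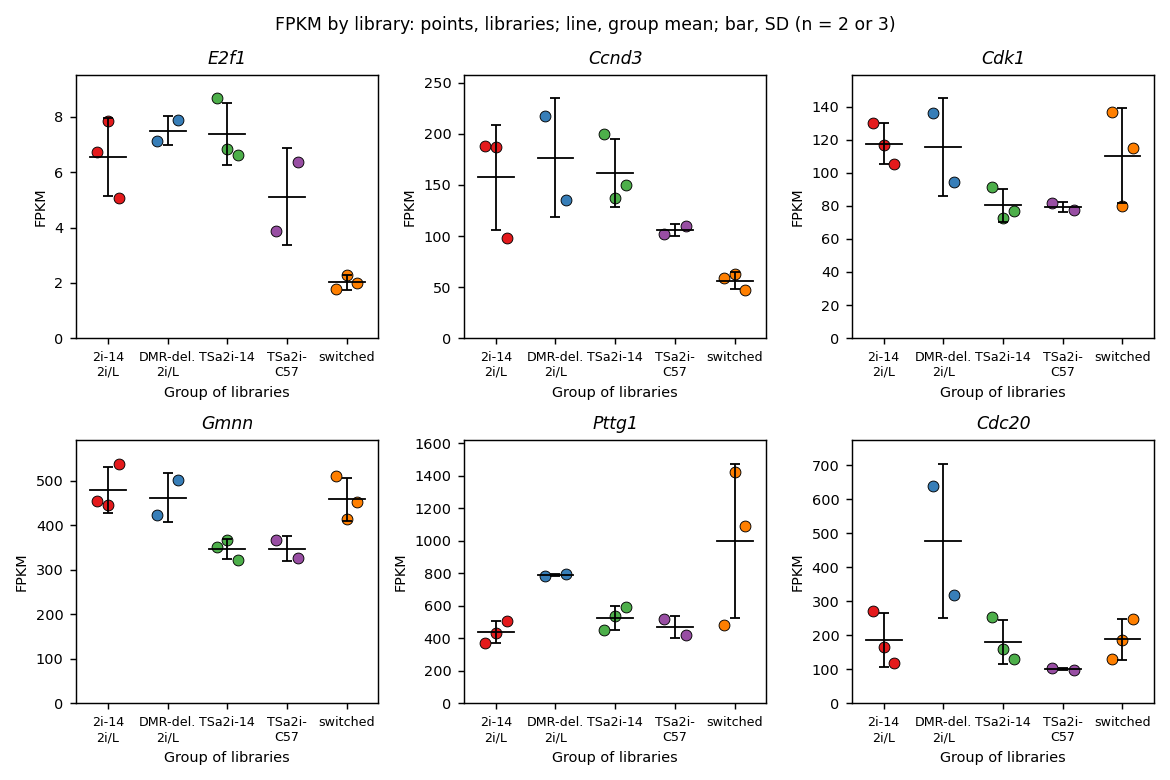
Points give FPKM of 6 members in each library by group, lines the group mean and bars the SD (n = 2 or 3; the switched group holds 3 different lines). E2f1 and Ccnd3 are lowest in the switched group, Cdk1 and Gmnn are lower in both TSa2i lines than in 2i-14, Cdc20 has its highest mean in the DMR-deleted lines, and Pttg1 has its highest means in those lines and in the switched group.

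The third comparison set 2i-O48 and 2i-O48-TKO against 2i-14, all in 2i/L, over 10164 genes; by name and deletions 2i-O48-TKO may descend from 2i-O48, so the 2 lines may not be independent. limma called 0 of the 45 members tested and 0.118% of all genes, with 0.0787% called higher, and 2 members had an unadjusted p under 0.05 (4.44%, against 5.79%). Those were Pttg1 and Cdc20, both of which act at the start of anaphase. Pttg1 was at 784 and 794 FPKM in the deleted lines, and at 372, 433 and 507 in 2i-14 (log2 change 0.86 ± 0.17 SE, limma adjusted p = 0.198). After the switch the deleted lines were at 1422 and 1090 FPKM and 2i-14 at 484. All 4 libraries with DMR deletions thus lay above all 9 wild-type libraries, the highest of which was 596 in TSa2i-14 p54. These 4 libraries come from the same 2 lines, and the share of all genes split this way was not counted.

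Cdc20 was at 638 FPKM in 2i-O48 and 318 in the line 2i-O48-TKO, against 273, 166 and 118 in 2i-14 (log2 change 1.36 ± 0.40 SE, limma adjusted p = 0.519). After the switch it was at 187 and 248 FPKM in these lines and at 129 in 2i-14, within the range of the wild-type libraries. 2i-O48 stood far above 2i-O48-TKO, which was close to 2i-14 p18. 3 of the 45 members lay wholly higher (6.67%, against 11.9% of all genes) and 2 wholly lower (4.44%, against 7.74%), 30 of the 45 had a log2 change above 0 (66.7%, against 55.7%), and the median over the members was 0.08, beside 0.03 over all genes. The median over the members turned to -0.09 without 2i-O48 and to -0.01 without 2i-14 p50, with 20 of 46 and 21 of 45 above 0.

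The fourth comparison set the later passages of the wild-type lines against the early ones (under p30), with the line as a block, over 10387 genes. limma called no gene, of the members or of all (0%); 837 genes and 3 of the 46 members, Cdc20, Cdk4 and Chek2, had an unadjusted p under 0.05 (8.06% of all genes, 6.52% of members). This member count rested on single libraries: it was 15 of 46 without either TSa2i-C57 library, 12 of 45 without the fibroblast-rich libraries, 0 without TSa2i-14 p22, 1 without 2i-14 p39, TSa2i-14 p47 or TSa2i-14 p54, 2 without 2i-14 p18 and 5 without 2i-14 p50. The count over all genes moved too. It was 1457 of 10770 without TSa2i-C57 p9 and 1462 of 10177 without TSa2i-C57 p58. Without the fibroblast-rich libraries it was 1195 of 10310, and without TSa2i-14 p22 it was 462 of 10798. Without each other library it was 515 to 1122. Cdc20 was at 273 FPKM at p18 and 166 and 118 at p39 and p50 in 2i-14, at 253, 159 and 131 at p22, p47 and p54 in TSa2i-14, and at 103 and 99.5 at p9 and p58 in TSa2i-C57 (log2 change -0.66 ± 0.20 SE, limma adjusted p = 0.515). The early library was the highest in each line, by little in TSa2i-C57. Every later library lay below the early one in all 3 lines for 5 members, Ccnb1, Cdc20, Cdk1, Cdk4 and Ect2 (10.9%, against 6.82% of all genes), and above it for 2, Mki67 and Wee1 (4.35%, against 8.26%). 18 of the 46 had a log2 change above 0 (39.1%, against 53.2%), and all 5 spindle checkpoint genes lay below 0, with a median of -0.26. For Plk1, Kif20a and the E-type cyclins TSa2i-C57 was higher at the later passage, whereas the other lines were lower. The 3 fibroblast-rich libraries are all of later passages; without them limma again called no member. In a test of whether the passage effect differed by medium, 0 of 46 members were called, none had an unadjusted p under 0.05, and limma called no gene at all (423 genes, 4.07%, had an unadjusted p under 0.05). 31 of the 46 had a difference above 0 (67.4%, against 65.4% of all genes).

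The fifth comparison set TSa2i-C57 (2 libraries) against TSa2i-14 (3 libraries) over 10502 genes. Again limma called no gene (0%), with 366 genes (3.49%) and 2 members (4.35%) at an unadjusted p under 0.05. The actin-EGFP transgene goes with TSa2i-14, so line and transgene cannot be told apart. These members were Cdc20, at 103 and 99.5 FPKM against 253, 159 and 131, and Ccnd3, at 102 and 110 FPKM against 200, 137 and 149. 6 members lay wholly lower in TSa2i-C57 (7.55% of all genes did), namely Ccnd3, E2f1, Wee1, Cdc20, Kif11 and Top2a, and none lay wholly higher (8.39% of all genes did).

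The ranges of the remaining members, none of which was called in any of the 5 comparisons as fitted above, were as follows. Of the S phase and mitotic cyclins, Ccne1 ranged from 44.1 to 195 FPKM over the 13 libraries, Ccna2 from 61.1 to 138 and Ccnb2 from 263 to 418, and the kinase partner Cdk2 from 32.8 to 86.7. The mitotic phosphatase Cdc25c ranged from 9.09 to 17.8 FPKM and the checkpoint kinase Ttk from 9.88 to 18.4. Among APC/C regulators, the activator Fzr1 ranged from 9.59 to 18.6 FPKM, the inhibitor Fbxo5 from 48.1 to 103 and Espl1, which encodes separase, from 1.67 to 3.49. These ranges are narrow beside that of Pttg1, whose product binds separase, at 372 to 1422 FPKM. Incenp, the scaffold of the chromosomal passenger complex, ranged from 2.61 to 6.03 FPKM, the spindle motor Kif11 from 7.47 to 12.8, the cytokinesis motor Kif20a from 16.2 to 71.5, Anln, which encodes anillin, from 8.30 to 13.9, and the cytokinesis exchange factor Ect2 from 18.8 to 33.7. The damage checkpoint kinases Chek1 and Chek2 ranged from 23.6 to 39.6 and from 20.5 to 42.8 FPKM.

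Other genes of the same pathways were read from 8 lists of 144 genes, 143 of which had values. With medium, 1 of the 137 tested rose and 1 fell; after the switch 1 of 136 rose and 3 fell; with DMR deletion 1 of 136 fell; none was called for passage or line. Of all genes, 7.57%, 6.89% and 0.118% were called with medium, switch and deletion. Both genes called with medium belong to the APC/C. Ube2s, the enzyme that extends ubiquitin chains on APC/C targets, was at 121, 140 and 137 FPKM in 2i-14 and at 63.8 to 84.4 in TSa2i/L (log2 change -0.79 ± 0.14 SE, limma adjusted p = 0.00866). Anapc7, an APC/C subunit, was at 9.99, 10.7 and 5.50 FPKM in 2i-14 and at 13.6 to 18.6 in TSa2i/L (log2 change 0.82 ± 0.22 SE, limma adjusted p = 0.0474). The Anapc7 call was lost when any 1 of the 8 libraries was left out (adjusted p 0.0521 to 0.155) and held in 5 of 18 alternatives, and the Ube2s call held in 17 of 18.

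After the switch, 2 of the list of 27 licensing and S phase genes fell and none rose, which is close to the share of all genes called (6.89%). Mcm4, a subunit of the replicative helicase, was at 66.2, 91.8 and 70.5 FPKM before and 37.6, 41.3 and 39.7 after (log2 change -0.91 ± 0.18 SE, limma adjusted p = 0.0394). Rrm2, a subunit of ribonucleotide reductase, was at 374, 426 and 369 FPKM before and 262, 238 and 214 after (log2 change -0.71 ± 0.16 SE, limma adjusted p = 0.0494), a call that held in 6 of 12 alternatives. The median log2 change of the 27 was -0.43, beside -0.09 over all genes. Cenpk, a centromere protein, rose, from 73.3, 72.1 and 61.7 FPKM to 150, 130 and 114 (log2 change 0.91 ± 0.17 SE, limma adjusted p = 0.0327).

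Trp53, the gene of the p53 checkpoint factor, fell with DMR deletion, and it was also called lower after the switch. It was at 346, 217 and 180 FPKM in 2i-14 and at 30.2 and 33.2 FPKM in 2i-O48 and 2i-O48-TKO, a log2 change of -2.87 ± 0.29 SE (limma adjusted p = 0.0257). After the switch it was at 13.9 and 11.1 FPKM in the deleted lines and at 118 in 2i-14 (log2 change over the 3 pairs -1.06 ± 0.23 SE, limma adjusted p = 0.0479), while the TSa2i/L lines were at 109 to 232 FPKM. The switch call held in 4 of 12 alternatives and was lost without the 2i-O48-TKO pair (adjusted p = 0.344) and without the replicate block (adjusted p = 0.513), and the deletion call held in 9 of 14. All 4 libraries of the deleted lines lay below all 9 wild-type ones, and the share of all genes split this way was not counted. The deletions and the lines that carry them cannot be told apart. Of 2 known targets of p53, Cdkn1a, the gene of the CDK inhibitor p21, was at 131 and 227 FPKM in the deleted lines and 147 to 168 in 2i-14, without a call, and Mdm2, which encodes the ligase that degrades p53, at 22.8 and 34.8 against 36.0 to 64.7 FPKM (log2 change -0.77 ± 0.31 SE, limma adjusted p = 0.803). Cdkn1a and Mdm2 were named after their values were seen. Cdkn1a, at 89.3 to 227 FPKM over the 13 libraries, was far above Cdkn1b, Cdkn2a and Cdkn2b in every library.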

How the data were processed

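The authors mapped reads of amplified full-length cDNA to mm9 with TopHat2 (2.0.11, with Bowtie2 2.2.2) and made FPKM values with Cufflinks (2.2.1), versions as in the submitters' processing notes; the annotation and any scaling between libraries are not given in the sources used here. The deposited unit is FPKM. Rows of a repeated symbol were summed and comparisons made on log2(FPKM + 1), which understates changes of low genes. limma 3.58.1 in R 4.3.3 was fitted over all genes that reached 1 FPKM in a number of libraries equal to the size of the smaller group, with an intensity trend and Benjamini-Hochberg adjustment at 0.05; the code was tested on simulated data. Pairing in the switch comparison comes from the cell line in the labels; deviations of the paired libraries correlated over genes by 0.17 (2i-14), -0.14 (2i-O48) and 0.36 (2i-O48-TKO).

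Members and lists were chosen with earlier results of these data known. Values by library are given for members called in any comparison, for those not overlapping between the media by the widest margin (up to 5 each way), and for the D-type cyclins, Cdkn2a, Cdkn2b, Cdkn1b, Ccnb1, Cdk1, Mad2l1, Bub1b, Cdc20, Aurkb, Top2a and Mki67. Of listed genes outside the members, each one called is named where a list has at most 3. Coordinates are those of GENCODE vM1 (mm9), promoters those of RefSeq. The fits without the fibroblast-rich libraries were chosen after seeing the data. Of the 41 samples of the series, those beyond the 13 RNA libraries were not analysed here. Depth was estimated from the smallest FPKM values of 3737 genes; 3 fragments on 1 kb correspond to 0.153 to 0.237 FPKM, which covers counting error only. Tables and plots were made with pandas 2.3.3, numpy 2.4.6 and matplotlib 3.10.9 under Python 3.11.15.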

Additional observations from a re-analysis of the deposited data

Results flagged for a closer look

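Among the 5 TSa2i/L libraries, 4 of 46 members had 1 library far from the others by Dixon's ratio (its gap to the nearest library over the whole range). For 5 draws from 1 normal population, chance would flag about 1 in 20, or 2.3 of 46. These libraries are of different lines and passages, so the count cannot be read against that rate. Cdc25a was lowest in TSa2i-C57 p9 (ratio 0.776), at 4.63 FPKM against 8.39 to 9.48. Fzr1 was lowest in the same library (ratio 0.741), at 11.1 FPKM against 16.7 to 18.6. Anln was highest in TSa2i-14 p47 (ratio 0.769), at 13.9 FPKM against 9.75 to 10.7. Chek2 was highest in TSa2i-14 p22 (ratio 0.795), at 35.8 FPKM against 26.4 to 28.3. TSa2i-C57 p9 has the lowest implied depth, 12700000 fragments; its part in these values was not tested.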

How the results depend on the processing

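Members called with medium numbered 2, beside 786 of all genes. They became 1 with no filter (374 genes), 1 with median centring (639), 0 with no intensity trend (772) and 0 with TSa2i-14 only (468). They became 4 when the DMR-deleted lines joined the 2i/L group (1250 genes) and 0 without the fibroblast-rich libraries (229). When each library was left out they were 0 to 4, beside 383 to 846 genes. Members called in the switch numbered 2, beside 672 of all genes. They became 0 with no filter (0 genes) and 1 with a mean FPKM of at least 5 (369 genes), where E2f1 was not tested. They became 4 when every passage of 2i-14 served as a control under the replicate block (1505 genes). When each line was left out they were 1 to 5, beside 311 to 1461 genes. The 1 call, without the 2i-O48-TKO pair, was Ccnd2, which passed the filter only through the switched libraries. Without the replicate block the number stayed at 2, beside 778 genes. For passage, line and deletion, and for the tests of switch by genotype and passage by medium, 0 members were called under every alternative run. Listed genes called with medium went from 2 to 1 with no filter and 1 with median centring, in the switch from 4 to 2 with a pseudocount of 0.1 and 0 with no filter, and with deletion from 1 to 0 with no filter. The members and listed pathway genes called in a comparison kept their direction in every alternative that tested them. Median centring moved the median of all genes by -0.12 with medium and 0.17 in the switch, and the share of called genes that were higher from 75.6% to 56.2% and from 32.3% to 55.1%. The causes were not tested; the fit with no filter tests more genes.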
